A study of Homo sapiens with 10 samples.

Results

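Control cells of the melanoma line A375 were compared between the 2 experiments of the study, with experiment 2 set against experiment 1. The comparison took the libraries whose titles mark them as controls, 2 from each experiment, and these are 4 of the 10 libraries. A375 is an established human line from a cutaneous melanoma and carries an activating BRAF mutation. Experiment 1 also held 4 libraries from cells given small interfering RNA (siRNA) against PHF10, a subunit of the PBAF chromatin remodelling complex. Experiment 2 also held 2 libraries labelled as knockdown of MYC, a transcription factor of growth and division. The study asked how PHF10 takes part in activation of genes by MYC, and each experiment had controls of its own. Both control groups were A375 cells with no gene targeted, grown in serum-containing medium by the same described protocol and harvested 72 h after transfection. The labels disagree on what the controls received, since a control siRNA is named in the protocol and the design text, but the siRNA field of these samples records no treatment. The sources used here do not give culture dates, passage or library dates. Every difference below is therefore a difference between experiments, and the state of the cells, their handling and the preparation of the libraries cannot be told apart. Nothing in the labels says that the replicates were separate cultures, so the spread behind the p-values is that between these libraries and may be technical.

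Melanoma cells of one genotype can occupy several transcriptional states, from a pigment-forming state driven by MITF and SOX10 to a dedifferentiated state with receptor tyrosine kinases, AP-1 factors and inflammatory cytokines. The NF-kB transcription factors switch on cytokines, chemokines and their own inhibitors, among them NFKBIA. Interferon, sensed through JAK kinases and the factors STAT2 and IRF9, switches on antiviral genes and raises HLA class I. The unfolded protein response of the endoplasmic reticulum raises chaperones that fold secreted proteins.

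The promoters of genes from 3 of these programs are shown first, because results below turn on these families. The sequences are the RefSeq promoter table's (GRCh38.p14), 110 bases lying within 250 bases upstream of the annotated start, 5′ to 3′ on the strand of the gene. Capitals mark the letters that matched a motif on either strand. For 4 NF-kB genes that were higher in experiment 2, the capitals mark GGANTTTCC, a form of the kappaB site.
CXCL8, chr4:73740427-73740536, plus strand: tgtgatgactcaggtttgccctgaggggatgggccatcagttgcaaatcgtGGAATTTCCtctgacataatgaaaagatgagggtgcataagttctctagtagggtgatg
CXCL1, chr4:73869264-73869373, plus strand: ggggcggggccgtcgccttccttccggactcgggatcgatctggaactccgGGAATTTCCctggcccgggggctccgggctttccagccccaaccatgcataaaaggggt
IL6, chr7:22727077-22727186, plus strand: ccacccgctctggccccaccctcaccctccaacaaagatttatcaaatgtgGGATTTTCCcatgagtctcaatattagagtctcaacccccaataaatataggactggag
NFKBIA, chr14:35404772-35404881, minus strand: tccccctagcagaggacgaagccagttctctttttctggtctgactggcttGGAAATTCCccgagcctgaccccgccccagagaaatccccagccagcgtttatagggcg
For 3 endoplasmic reticulum chaperone genes that were lower in experiment 2, the capitals mark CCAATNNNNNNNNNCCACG, the endoplasmic reticulum stress element.
HSPA5, chr9:125241346-125241455, minus strand: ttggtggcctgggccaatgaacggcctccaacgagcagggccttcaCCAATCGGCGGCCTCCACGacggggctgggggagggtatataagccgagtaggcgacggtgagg
CALR, chr19:12938359-12938468, plus strand: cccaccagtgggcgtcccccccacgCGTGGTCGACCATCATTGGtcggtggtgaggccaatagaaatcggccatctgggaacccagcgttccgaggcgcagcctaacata
HSP90B1, chr12:103930275-103930384, plus strand: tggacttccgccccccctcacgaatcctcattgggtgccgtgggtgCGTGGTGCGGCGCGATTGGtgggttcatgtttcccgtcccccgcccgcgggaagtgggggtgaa
For 2 interferon-stimulated genes, whose levels varied widely between libraries, the capitals mark GAAANNGAAA, the core of the interferon-stimulated response element; in ISG15 2 matches overlap.
IFIT1, chr10:89392470-89392579, plus strand: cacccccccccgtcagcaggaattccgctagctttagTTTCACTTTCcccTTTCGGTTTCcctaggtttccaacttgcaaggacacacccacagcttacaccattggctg
ISG15, chr1:1013340-1013449, plus strand: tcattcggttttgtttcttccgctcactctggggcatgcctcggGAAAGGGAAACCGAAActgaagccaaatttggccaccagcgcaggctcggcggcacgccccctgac

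These matches describe letters and not sites in use. The genes shown are those looked up that had a match upstream of the start. The chaperone gene PDIA4 and the interferon-stimulated gene MX1 were looked up too, but gave no such match or had no promoter entry. Over the table's windows of 250 bases before to 50 bases after the start, GGANTTTCC was in 449 of 27305 promoters (1.64%) and in 11 of the 24 promoters found for the NF-kB, cytokine and chemokine genes called higher in experiment 2 (45.8%). The stress element was in 0.0806% of all promoters and in 0.129% of those of genes tested. It was in 6 of 35 found for the whole list of endoplasmic reticulum stress and heat shock genes (17.1%). Among the chaperone genes called lower it was in 4 of 8 found. The interferon motif was in 3.65% of all promoters and in 27 of the 43 found for interferon-stimulated genes (62.8%). All 3 families are textbook examples of these motifs, so the shares show only which promoters of the lists carry them.

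Gene reads numbered 20.5 and 23.7 M in the controls of experiment 1 and 36.6 and 33.2 M in those of experiment 2. The experiment 2 controls were close to each other, with a Pearson's r of 0.995 across genes (log2 CPM, where CPM are read counts scaled to the library's size) and a common biological coefficient of variation of 2.47%. The experiment 1 controls stood further apart, with r = 0.980 and a coefficient of 23.3%, and r across the experiments was 0.953 to 0.964 (genes are not independent replicates). Control 1 of experiment 1 had the lower level of cytosolic ribosomal protein genes, a mean log2 CPM of 8.43 against 9.09 in control 2 and 9.06 in both experiment 2 controls. Its reads outside annotated genes were 12.1% of the library, against 9.93% in control 2 and 9.28% and 8.99% in experiment 2. Interferon-stimulated genes separated it most, as given below. Results that changed when 1 of the 10 libraries was left out are given with that value, and where this left a control group with 1 library its spread was taken to be that of the other groups. The part of depth, reads outside genes and control 1 in the results was not tested beyond these fits.

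The line's label was checked against melanoma markers. Of 8 melanoma identity genes 7 had a mean of at least 1 CPM in both experiments. SOX10, which specifies the lineage, stood at 744 and 867 CPM in experiment 1 and at 828 and 827 CPM in experiment 2, and the groups overlapped (log2 fold change 0.04, SE 0.17, adjusted p = 0.902). MLANA, a melanosome protein, had 0 reads in all 4 libraries and TYR, the tyrosinase of pigment synthesis, had at most 0.057 CPM. The libraries of both experiments thus had SOX10 and few or no reads of the pigment genes MLANA and TYR.

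**Figure D1:**
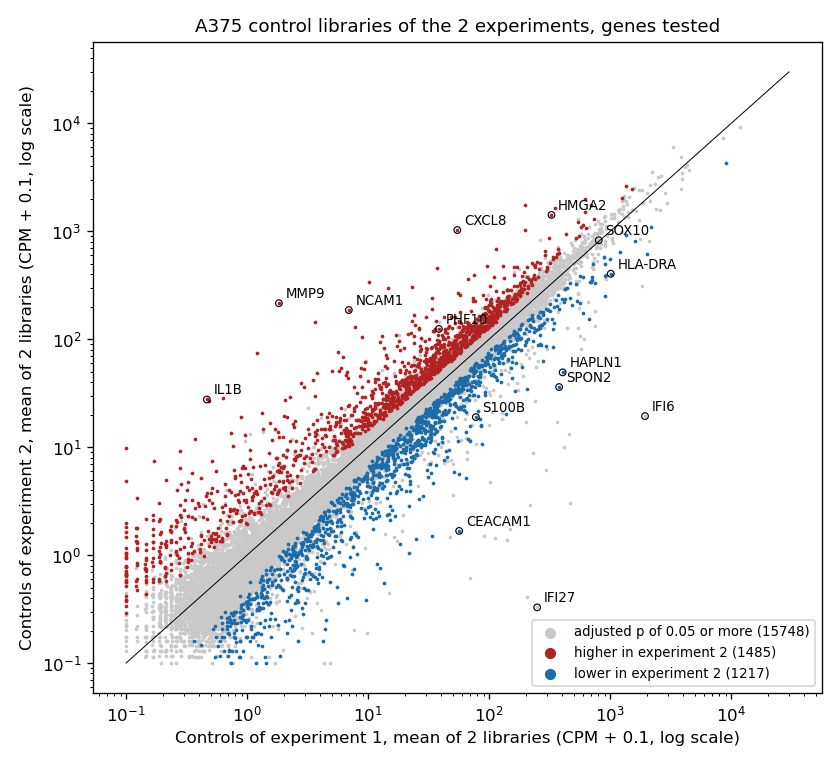
Mean CPM of the 2 control libraries of experiment 1 (x) and experiment 2 (y) for the genes tested, both axes log scale with 0.1 added; red and blue points passed the threshold. MMP9, IL1B and CXCL8 lie far above the diagonal and SPON2, HAPLN1 and CEACAM1 below it, while IFI6 and IFI27 lie far below it without passing.

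Of 18450 genes tested with edgeR's quasi-likelihood test, 1485 were higher in the experiment 2 controls (8.05%) and 1217 were lower (6.6%), at an adjusted p under 0.05, 14.6% in all. DESeq2 called 2065 (11.2%) and 1680 (9.11%). The median log2 fold change was −0.02. By quartile of exon length it was −0.134, −0.041, 0.006 and 0.086, from the shortest genes to the longest. The part of exon length in the list medians was not tested. Of the called genes 715 were higher and 722 lower by at least 1 on the log2 scale. With upper-quartile scaling the median moved to −0.13 and the split to 1028 higher (5.57%) and 1690 lower (9.16%). With the 4 controls fitted alone 13.7% of genes were higher and 11.3% lower. With 1 library left out the counts ran from 373 higher and 181 lower without control 1 of experiment 2 to 1894 and 1534 without replicate 1 of PHF10 knockdown. Without control 1 of experiment 1 they were 569 (2.88%) and 393 (1.99%), and without control 2 they were 675 (3.4%) and 694 (3.5%). Without control 1 of experiment 2 the shares were 1.92% and 0.933%, and without control 2 they were 2.0% and 1.04%. Without replicate 1 of the libraries labelled MYC knockdown 4.83% and 3.82% of genes were called, and without replicate 2 4.86% and 3.83%. List counts below are read against the share of the same fit, which for the main comparison is 8.05% higher and 6.6% lower. The 2 controls of each experiment did not overlap for 6368 genes higher (34.5% of those tested) and 6181 lower (33.5%). With 2 libraries a group many genes separate in this way without any difference, so these shares serve only as a background for the lists.

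The 12 largest rises were taken among protein-coding genes with at least 5 CPM in experiment 2. HEPHL1, a copper-dependent ferroxidase, had 0 reads in both experiment 1 controls and 10.5 and 8.93 CPM in experiment 2. Against a floor of 3 reads over the experiment 1 group it was at least 144-fold higher. MMP9, the gelatinase that cuts basement membrane collagen (chr20:46008908-46016561, GENCODE release 29 on GRCh38), stood at 1.95 and 1.51 CPM in experiment 1 and at 213 and 218 CPM in experiment 2. All MMP9 values of experiment 2 lay above those of experiment 1 (log2 fold change 6.96, SE 0.30, adjusted p = 5.04e-06). NCAM1, a neural cell adhesion molecule, went from 6.87 and 6.78 CPM to 189.5 and 184 CPM (log2 fold change 4.77, SE 0.43, adjusted p = 3.01e-04). ZP4, an egg coat glycoprotein, went from 0.65 and 1.56 CPM to 79.7 and 70.4 CPM (log2 fold change 6.07, SE 0.33). IGFN1 went from 0.33 and 0.22 CPM to 11.8 CPM in both (log2 fold change 5.43), and LDB2, a LIM domain binding cofactor, from 0.28 and 0.22 CPM to 5.57 and 5.87 CPM (4.51). ESM1, a secreted endothelial proteoglycan, stood at 5.15 and 1.99 CPM in experiment 1 and at 147 and 141 CPM in experiment 2 (5.34, SE 1.20). It was called, with an adjusted p of 0.0236, but missed the threshold without any 1 of the 4 controls (0.0977 to 0.111) or of the libraries labelled MYC knockdown (0.0506 and 0.051). The others were the cytokine genes CSF3, IL1B and CSF2, the iron carrier LCN2 and the survival gene BCL2A1, given with their families.

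The 12 largest falls were chosen in the same way. OLFML3, a secreted olfactomedin protein, stood at 38.3 and 28.6 CPM in experiment 1 and 1.63 and 1.17 CPM in experiment 2, so the groups were far apart (log2 fold change −4.57, SE 0.38, adjusted p = 2.24e-04). CADM3, an immunoglobulin-type adhesion molecule, went from 25.5 and 17.5 CPM to 0.83 and 1.07 CPM (−4.49, SE 0.31). SCARA5, a ferritin receptor, went from 56.9 and 72.3 CPM to 4.99 and 5.11 CPM (−3.68, SE 0.34). CD200 (−4.45), ANGPTL1 (−4.41), the iron carrier TF (−3.99), PPP2R2B (−3.74) and the cadherin CDH10 (−3.67) also fell, in the full comparison and with any 1 library left out. The other 4 rested on single libraries. CEACAM1, an adhesion molecule, stood at 98.5 and 14.4 CPM in experiment 1 against 1.54 and 1.61 CPM (log2 fold change −5.16, SE 1.21), and GRIP2 at 24.7 and 2.33 against 0.37 and 0.54 CPM (−4.89, SE 1.32). MGP, an inhibitor of calcification, stood at 3.11 and 21.9 against 0.66 and 0.66 CPM (−4.24, SE 0.96), and PLAC8 at 30.0 and 6.31 against 1.51 and 0.82 CPM (−3.95, SE 0.92). CEACAM1 missed the threshold without control 1 of experiment 1 (adjusted p = 0.107), GRIP2 did so (0.286) and PLAC8 did so (0.136), while MGP missed it without control 2 (0.111). All 4 also missed it without either control of experiment 2 (0.129 to 0.244), and CEACAM1 and GRIP2 without either library labelled MYC knockdown (0.0547 to 0.0758). GRIP2 missed it as well without PHF10 knockdown replicate 2 (0.0542) or 4 (0.0522), and with limma-voom (0.0624). With the 4 controls fitted alone none of CEACAM1 (0.063), GRIP2 (0.0902), MGP (0.0574) and PLAC8 (0.0509) passed.

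NF-kB target and cytokine genes were the list that stood highest in experiment 2. Of 38 tested members 29 rose (76.3%, against 8.05% of all genes), 1 fell and 8 did not pass. The median log2 fold change was 2.42, against −0.02 for all genes. The 2 controls of experiment 2 lay above both of experiment 1 for 34 members, where 34.5% of all genes did so. The list was chosen with earlier results of these data known.

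**Figure D2:**
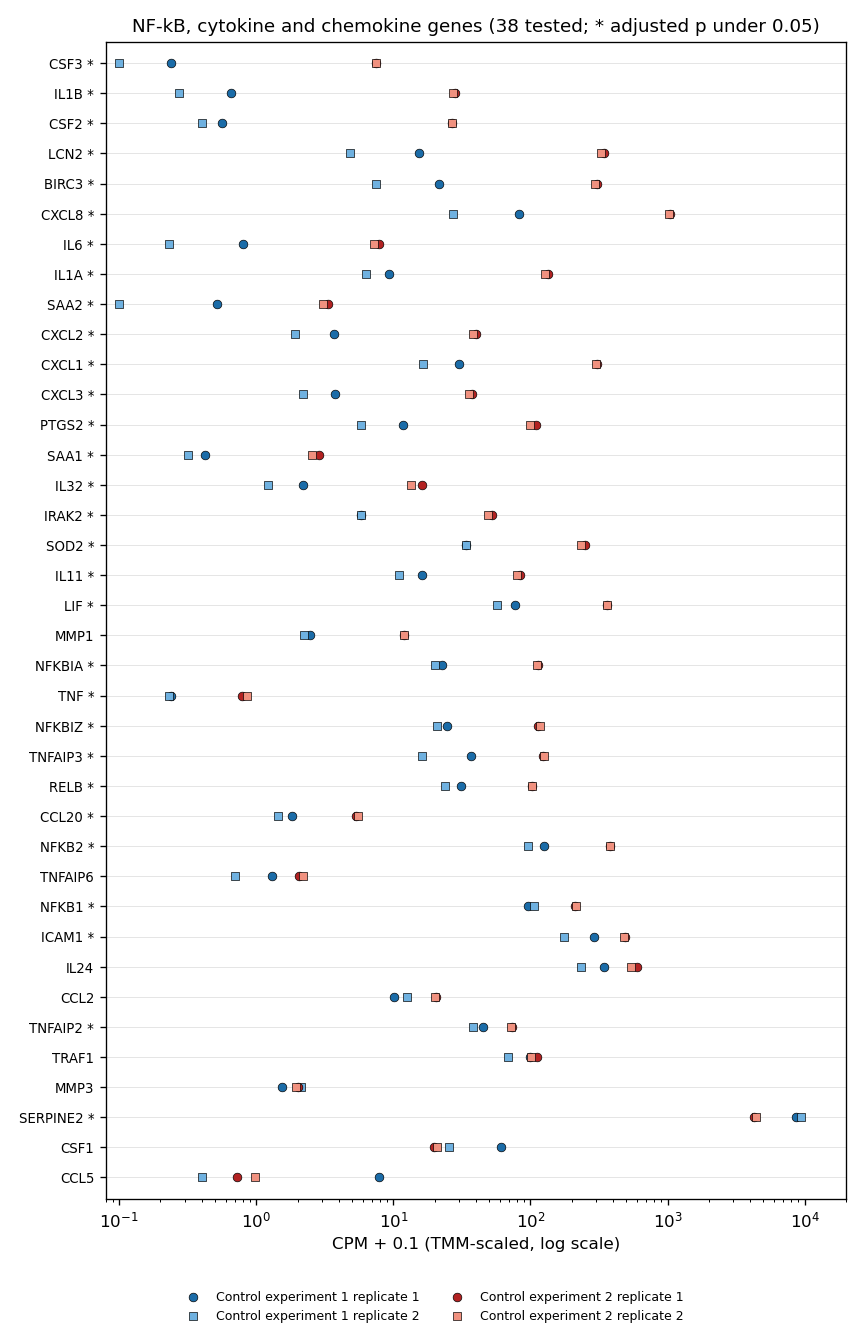
CPM (log scale, 0.1 added) of the 38 tested NF-kB, cytokine and chemokine genes in each control library, ordered by log2 fold change, with asterisks on genes past the threshold. The red experiment 2 points lie to the right of the blue experiment 1 points for most genes, and SERPINE2, the called gene that was lower, lies the other way.

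The chemokines that attract neutrophils were among the strongest. CXCL8 (chr4:73740506-73743716) stood at 81.9 and 27.1 CPM in experiment 1 and at 1036 and 1020 CPM in experiment 2. The experiment 1 controls differed from each other here, yet both were far below experiment 2 (log2 fold change 4.24, SE 0.62, adjusted p = 0.00287). CXCL1 went from 30.0 and 16.2 CPM to 307 and 301 CPM (3.72, SE 0.35), CXCL2 from 3.58 and 1.81 CPM to 39.8 and 37.8 CPM (3.85, SE 0.45), and CXCL3 from 3.62 and 2.07 CPM to 37.1 and 35.6 CPM (3.68, SE 0.30). These 3 genes are close relatives, so reads that map to more than 1 of them went uncounted and others may be assigned to the wrong one. CCL2, which attracts monocytes, stood at 10.1 and 12.6 CPM against 20.4 and 20.1 CPM and did not pass (0.84, SE 0.41, adjusted p = 0.205).

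Several cytokines were higher in experiment 2, some of them from levels under 1 CPM in experiment 1. IL1B stood at 0.56 and 0.17 CPM in experiment 1 and at 28.2 and 26.9 CPM in experiment 2 (log2 fold change 6.24, SE 0.92, adjusted p = 0.00313), and IL1A at 9.15 and 6.22 against 134 and 127 CPM (4.09, SE 0.43). The granulocyte and macrophage growth factor CSF2 went from 0.46 and 0.30 CPM to 26.8 and 26.9 CPM (6.12, SE 0.26, adjusted p = 5.04e-06). CSF3, the granulocyte growth factor, had 3 reads in all in experiment 1 (0.14 and 0 CPM) and 7.39 and 7.32 CPM in experiment 2. Its fitted log2 fold change of 6.68 (SE 0.69) was 10.7 without control 1 of experiment 1, the only library of that group with reads. IL6 went from 0.70 and 0.13 CPM to 7.71 and 7.10 CPM (4.17, SE 0.68, adjusted p = 0.00471). LIF (2.43, SE 0.20) and IL11 (2.60, SE 0.29), which signal through gp130 as IL6 does, rose from higher starting levels of 56.5 to 77.5 and 10.9 to 16.1 CPM. TNF, an upstream activator of NF-kB, remained under 1 CPM in every control library, at 0.14 and 0.13 against 0.69 and 0.76 CPM (2.38, SE 0.59). It was called (adjusted p = 0.0263) but missed the threshold without any 1 control (0.121 to 0.162) or library labelled MYC knockdown (0.0581 and 0.0576).

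The pathway's own components and feedback genes rose with the cytokines. NFKBIA, the inhibitor that holds NF-kB in the cytoplasm, stood at 22.7 and 20.05 CPM in experiment 1 and at 113 and 112 CPM in experiment 2. Its replicates were tight in both experiments (log2 fold change 2.40, SE 0.13, adjusted p = 3.03e-05). The subunits RELB (1.91, SE 0.18) and NFKB2 (1.78, SE 0.18) rose, as did the nuclear cofactor NFKBIZ (2.35, SE 0.24) and the antioxidant enzyme SOD2 (2.85, SE 0.23). BIRC3, a ubiquitin ligase of the pathway, went from 21.4 and 7.39 CPM to 307 and 295 CPM (4.39, SE 0.62). TNFAIP3, which edits ubiquitin to end signalling, went from 36.5 and 16.2 CPM to 124 and 125 CPM (2.24, SE 0.50). PTGS2, the inducible prostaglandin synthase, went from 11.7 and 5.75 CPM to 109 and 99.0 CPM (3.58, SE 0.68), and LCN2 from 15.3 and 4.75 CPM to 345 and 329 CPM (5.07, SE 1.01). TNFAIP3, PTGS2 and LCN2 missed the threshold without control 2 of experiment 1 (adjusted p = 0.0901, 0.068 and 0.0698) or without either control of experiment 2 (0.0527 to 0.0932).

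A few members of the list fell, overlapped between the groups or had a rise whose call depended on single libraries. SERPINE2, a secreted protease inhibitor, stood at 8696 and 9350 CPM in experiment 1 and at 4276 and 4411 CPM in experiment 2. It fell (log2 fold change −1.05, SE 0.28, adjusted p = 0.034), but missed the threshold without any 1 control (0.104 to 0.201) or library labelled MYC knockdown (0.0698 and 0.0697). CCL5, a chemokine that interferon also induces, stood at 7.71 and 0.30 CPM in experiment 1 and 0.63 and 0.88 CPM in experiment 2, so the groups overlapped (adjusted p = 0.352). ICAM1, the ligand of leukocyte integrins, went from 292 and 175 CPM to 487 and 482 CPM (1.05, SE 0.29). It was called (adjusted p = 0.0401) but missed the threshold with upper-quartile scaling (0.0636), without control 2 of experiment 1 (0.175), without either control of experiment 2 (0.165 and 0.161), without PHF10 knockdown replicate 4 (0.0528) or without a library labelled MYC knockdown (0.0675 and 0.0673). The number of members called higher was 27 without control 1 of experiment 1, 20 without control 2, 20 without control 1 of experiment 2 and 19 without control 2 of experiment 2, and the median ran from 2.34 to 2.77 in these fits.

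Interferon-stimulated genes were higher in experiment 1, but mainly in 1 of its 2 controls. All 52 tested members had a negative fold change, with a median of −2.75, yet only 2 passed the test, against 6.6% of all genes. Their mean log2 CPM was 7.84 in control 1 and 4.71 in control 2 of experiment 1, and 3.52 and 3.51 in experiment 2. The 2 controls of experiment 2 lay below both of experiment 1 for 47 members, where 33.5% of all genes did so. Without control 1 the median was −0.89 and 0 members were called by edgeR, and without control 2 it was −3.55 and 6 were called. Without either control of experiment 2 or either library labelled MYC knockdown 0 were called. DESeq2 called 23 members lower. The PHF10 knockdown libraries of experiment 1 were uneven as well, at 7.44, 7.10, 3.67 and 4.77, while both libraries labelled MYC knockdown were low, at 3.35 and 3.54.

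IFIT1, which binds viral RNA, shows the pattern. It stood at 891 and 44.9 CPM in the controls of experiment 1 and at 2.74 and 3.19 CPM in those of experiment 2, so that both experiment 1 controls were above experiment 2 and far from each other. Its log2 fold change was −7.30 (SE 2.34) and its adjusted p was 0.0735. ISG15, a ubiquitin-like modifier, stood at 563 and 29.3 against 6.74 and 5.43 CPM (adjusted p = 0.095), and the antiviral GTPase MX1 at 769 and 69.6 against 10.1 and 9.88 CPM (0.0933). IFI27 had the widest range, at 494 and 5.23 against 0.17 and 0.28 CPM (0.104). CXCL10, a chemokine for T cells, stood at 38.3 and 0.73 CPM against 2.03 and 2.46 CPM, and its groups overlapped.

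Transducers of the interferon signal followed the same order. STAT2 stood at 396 and 91.4 CPM in experiment 1 and at 55.9 and 53.9 CPM in experiment 2 (log2 fold change −2.15, adjusted p = 0.134). IRF9, its DNA-binding partner, passed the test at 11.1 and 4.62 against 1.60 and 1.26 CPM (−2.46, SE 0.65, adjusted p = 0.034). LGALS3BP, a secreted glycoprotein, passed as well, at 2865 and 1139 against 620 and 605 CPM (−1.71, SE 0.49, adjusted p = 0.0436). Both missed the threshold without control 1 of experiment 1 (0.213 and 0.319), without either control of experiment 2 (0.163 to 0.219) or without either library labelled MYC knockdown (0.0551 to 0.075). IFNB1, the type I interferon that many cells secrete, was too low to test, at 0.19 and 0 CPM in experiment 1 and 0 in both experiment 2 controls.

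**Figure D3:**
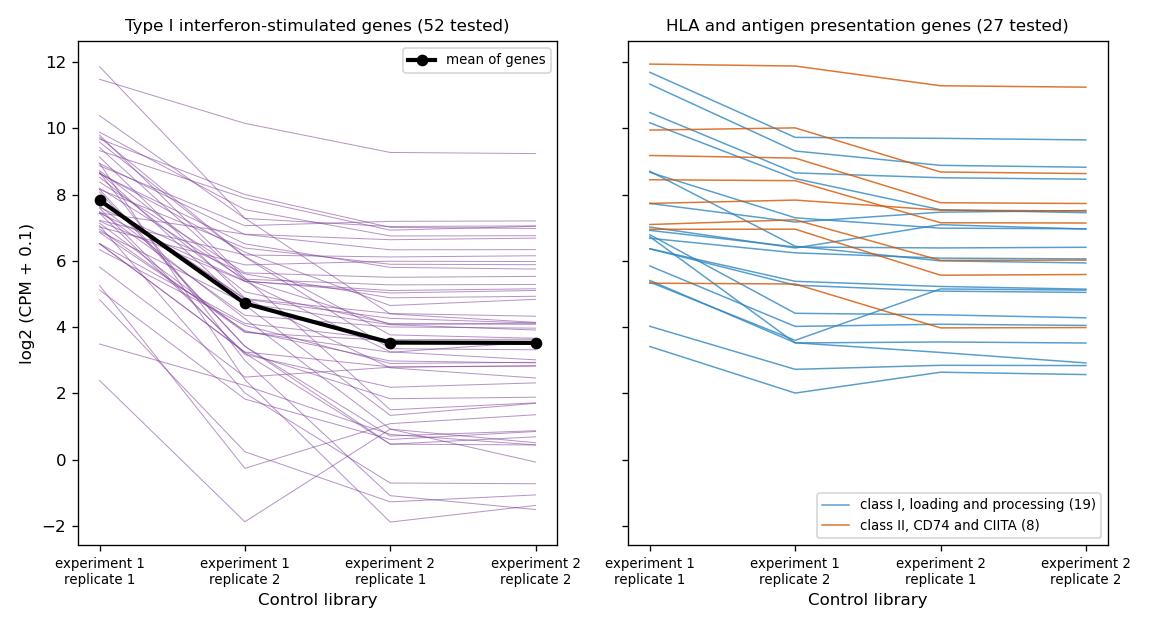
log2 (CPM + 0.1) of each interferon-stimulated gene (left) and each HLA or antigen presentation gene (right) in the 4 control libraries, with a line joining the values of 1 gene and black points for the mean. Interferon-stimulated genes and most class I genes are highest in control 1 of experiment 1, whereas most class II genes (orange) are level within each experiment and lower in experiment 2.

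Antigen presentation genes divided by HLA class. Of 27 tested genes 6 fell (22.2%, against 6.6% of all genes) and 0 rose, with a median of −1.17. The 6 that fell were all class II. HLA-DRA, the shared alpha chain of HLA-DR, stood at 989 and 1036 CPM in experiment 1 and at 412 and 398 CPM in experiment 2. Both groups were tight and did not overlap (log2 fold change −1.32, SE 0.18, adjusted p = 0.00187). HLA-DRB1 has near-identical relatives, so its reads may go uncounted or be assigned to the wrong gene. It fell as well (−1.29, SE 0.18), as did the peptide exchange factors HLA-DMA (−1.38, SE 0.15) and HLA-DMB (−1.34, SE 0.16). These 4 passed the test with any 1 library left out. HLA-DPA1 (−1.40, SE 0.30) and HLA-DPB1 (−1.15, SE 0.23) fell but missed the threshold without either control of experiment 2 (adjusted p = 0.101 to 0.116), and also HLA-DPA1 without control 1 (0.0699) and HLA-DPB1 without control 2 (0.0597) of experiment 1.

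The class II regulators did not show a called fall. CIITA, the coactivator that class II genes require, stood at 213 and 229 CPM in experiment 1 and at 185 and 182 CPM in experiment 2 (log2 fold change −0.27, SE 0.13, adjusted p = 0.212). RFX5, a DNA-binding factor of class II promoters, stood at 171 and 164 against 159 and 162 CPM (adjusted p = 0.863). CD74, the invariant chain, stood at 3936 and 3778 against 2502 and 2428 CPM and was not called (−0.65, SE 0.20, adjusted p = 0.0578).

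Class I genes went with the interferon-stimulated genes. B2M, the class I light chain, stood at 3316 and 849 CPM in experiment 1 and at 832 and 806 CPM in experiment 2 (adjusted p = 0.23). Control 2 of experiment 1 was thus closer to experiment 2 than to control 1. The peptide transporter TAP1 stood at 418 and 87.0 against 64.0 and 61.3 CPM (adjusted p = 0.157). HLA-C was nearest to a call (−2.06, SE 0.61, adjusted p = 0.0522). The median of the list was −0.19 without control 1 and −1.29 without control 2 of experiment 1.

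Chaperones of the endoplasmic reticulum were lower in experiment 2. Of 36 genes in a list of endoplasmic reticulum stress and heat shock genes 9 fell (6.6% of all genes did) and 1 rose, and the median was −0.15. The 9 that fell were all luminal proteins of the endoplasmic reticulum. HSPA5, the main luminal chaperone, stood at 1192 and 1216 CPM in experiment 1 and at 633 and 651 CPM in experiment 2, with replicates far closer than the groups (log2 fold change −0.91, SE 0.18, adjusted p = 0.0105). The disulfide isomerase PDIA3 went from 710 and 672 CPM to 332 and 341 CPM (−1.04, SE 0.15, adjusted p = 0.0028) and held with any 1 library left out. CALR, a calcium-binding lectin chaperone, went from 2441 and 1933 CPM to 1093 and 1116 CPM (−0.99, SE 0.22), and HSP90B1 from 1630 and 1579 CPM to 792 and 849 CPM (−0.97, SE 0.26). PDIA6 (−1.01), PDIA4 (−0.84), the secreted factor MANF (−0.82), the co-chaperone DNAJB11 (−0.77) and CRELD2 (−1.06) made up the rest. HSPA5, CALR, PDIA6, PDIA4, MANF, DNAJB11, HSP90B1 and CRELD2, all but PDIA3, each missed the threshold with either control of experiment 2 left out. Without control 1 of experiment 1 CALR, HSP90B1 and PDIA6 missed it, and without control 2 HSP90B1, MANF and DNAJB11 were among those that did. HSP90B1 also missed it without either library labelled MYC knockdown (0.0735 and 0.0733). Without control 1 or control 2 of experiment 2 only 1 member was called lower, without control 1 or 2 of experiment 1 the counts were 6 and 5, and the median ran from −0.215 to −0.05.

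Genes of the melanocyte lineage moved in both directions. Of 31 tested genes 9 fell and 5 rose, with a median of −0.45. MITF, the master regulator of pigment cells, stood at 55.3 and 38.5 CPM in experiment 1 and at 21.3 and 22.5 CPM in experiment 2. The groups did not overlap, but the difference was not called (log2 fold change −1.10, SE 0.37, adjusted p = 0.0755). The neural crest factor TFAP2B fell, from 166 and 243 CPM to 35.0 and 34.5 CPM (−2.56, SE 0.25, adjusted p = 4.16e-04), while its relative TFAP2A stood at 24.3 and 22.0 against 18.5 and 20.2 CPM (adjusted p = 0.419). S100B, the calcium-binding melanoma marker, fell from 73.1 and 82.1 CPM to 18.04 and 19.8 CPM (−2.04, SE 0.22), and S100A1 by 1.52 on the log2 scale (SE 0.18). These 3 falls passed the test with any 1 library left out.

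The remaining lineage calls were less stable. ERBB3, a neuregulin receptor, went from 1022 and 977 CPM to 556 and 551 CPM (log2 fold change −0.85, SE 0.18, adjusted p = 0.0158), and the melanosome glycoprotein GPNMB from 358 and 400 CPM to 186 and 193 CPM (−1.003, SE 0.27, adjusted p = 0.035). Both missed the threshold without any 1 of the 4 controls (0.0524 to 0.195), and GPNMB also without either library labelled MYC knockdown (0.0674 and 0.0672). DCT, a pigment enzyme, was low throughout, at 1.44 and 0.60 against 0.11 and 0.03 CPM, and its fall missed the threshold without any 1 control (adjusted p = 0.0553 to 0.235), without either library labelled MYC knockdown (0.0515 and 0.0519) or without PHF10 knockdown replicate 4 (0.0503). BCL2A1, a survival gene that MITF and NF-kB can both induce, rose from 0.88 and 0.69 CPM to 19.1 and 18.8 CPM (4.59, SE 0.85, adjusted p = 0.00888), but missed the threshold without any 1 control (0.0502 to 0.0692). With 1 control library left out 1 member was called higher and 4 or 5 lower, and the median ran from −0.50 to −0.40.

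Genes of the dedifferentiated melanoma state were higher in part. Of 50 tested genes 13 rose (8.05% of all genes did) and 6 fell, with a median of 0.44. Of the receptors, the nerve growth factor receptor NGFR rose from 31.7 and 21.0 CPM to 124 and 130 CPM (log2 fold change 2.26, SE 0.30, adjusted p = 0.00189), and EGFR rose from 23.0 and 24.4 CPM to 69.6 and 67.2 CPM (1.53, SE 0.28, adjusted p = 0.00765). EGFR missed the threshold without control 1 of either experiment (0.0591 and 0.0556). The ligand WNT5A, a non-canonical WNT linked to invasion, rose from 74.0 and 75.2 CPM to 401 and 380 CPM (2.39, SE 0.37). The transcription factor ETS1 went from 49.8 and 60.1 CPM to 273 and 267 CPM (2.30, SE 0.14, adjusted p = 5.25e-05). NUAK1, a kinase of the AMPK family, rose by 1.49 (SE 0.20). AXL, a receptor often used to mark the state, stood at 291 and 211 against 392 and 371 CPM and was not called (0.60, SE 0.29, adjusted p = 0.201).

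Other members of this list fell or were low. The mesenchymal factor ZEB2 went from 59.7 and 54.3 CPM to 34.1 and 34.3 CPM (log2 fold change −0.74, SE 0.13, adjusted p = 0.00675), and the platelet-derived growth factor receptor PDGFRB from 37.1 and 21.6 CPM to 10.2 and 11.2 CPM (−1.45, SE 0.34, adjusted p = 0.0217). Both missed the threshold without control 1 of experiment 1 or either control of experiment 2 (0.054 to 0.15). SOX9, which opposes SOX10, was low, at 1.21 and 0.78 against 3.48 and 3.22 CPM (1.75, SE 0.50, adjusted p = 0.0453), and missed the threshold without any 1 control (0.119 to 0.187), without either library labelled MYC knockdown (0.0792 and 0.0791) or with upper-quartile scaling (0.0598). Without control 1 of experiment 1 the list had 4 members higher and 1 lower, without control 2 it had 7 and 5, and without control 1 or 2 of experiment 2 it had 5 and 6 higher and 0 lower. Lists share some genes, so a gene can be counted in more than one.

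**Figure D4:**
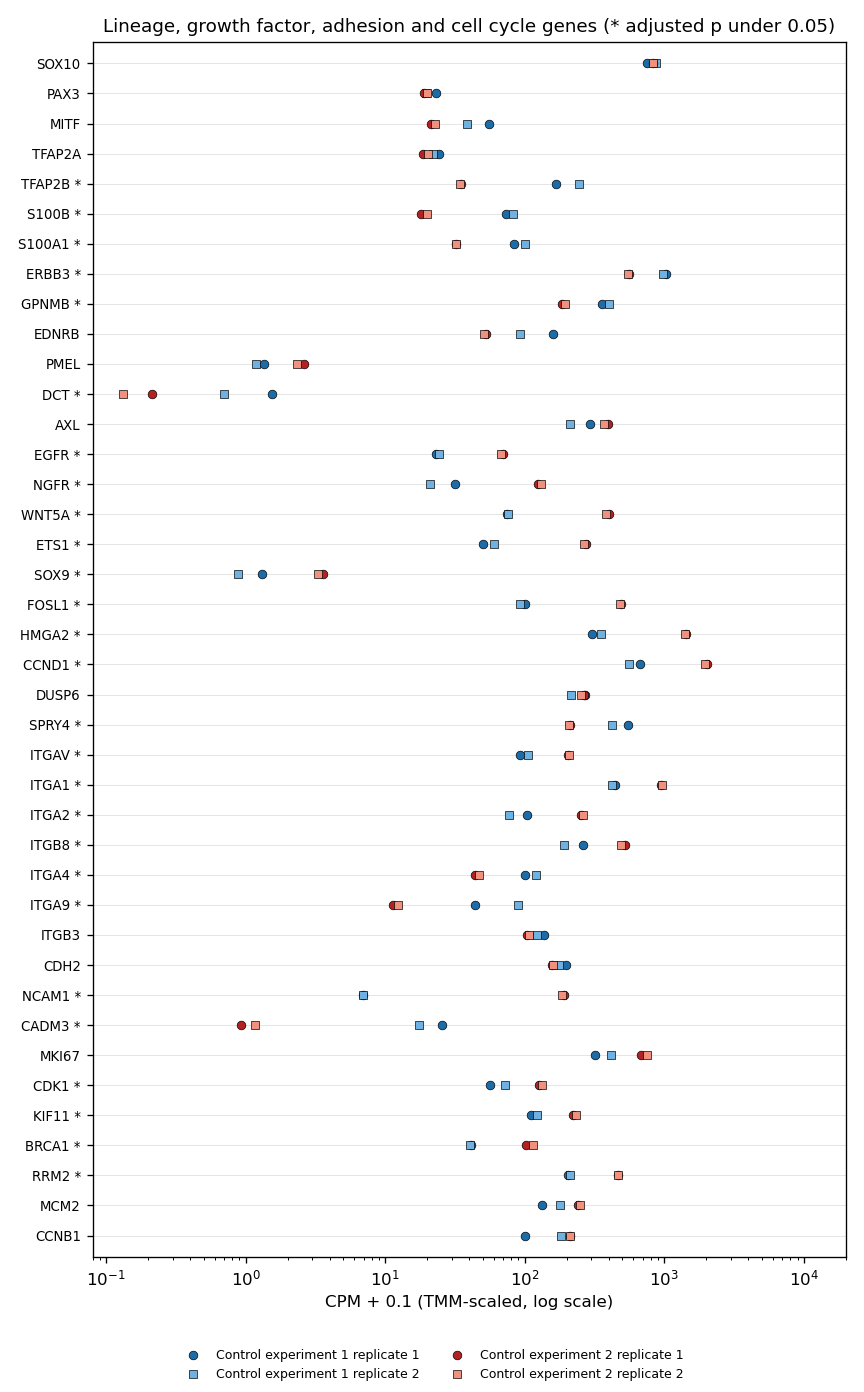
CPM (log scale, 0.1 added) in each control library for 40 lineage, growth factor, adhesion and cell cycle genes, with asterisks on genes past the threshold. SOX10 overlaps between experiments, TFAP2B and S100B are lower in experiment 2, and NGFR, WNT5A, ETS1, CCND1 and NCAM1 are higher.

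ERK output and AP-1 genes rose in part. In melanoma with mutant BRAF the ERK kinases drive cyclin D1, AP-1 factors and their own inhibitors of the DUSP and SPRY families. Of 26 ERK output genes 8 rose (30.8%, against 8.05% of all genes) and 3 fell (11.5%, against 6.6%), with a median of 0.34. Of 29 AP-1 and immediate early genes 9 rose (31.0%) and 1 fell (3.45%), with a median of 0.49. CCND1, cyclin D1, went from 672 and 558 CPM to 2019 and 1943 CPM (log2 fold change 1.69, SE 0.24, adjusted p = 0.00238). HMGA2, an architectural chromatin protein, went from 303 and 353 CPM to 1434 and 1406 CPM (2.12, SE 0.21), and PHLDA1 from 630 and 615 CPM to 1527 and 1488 CPM (1.27, SE 0.22). PHLDA1 had an adjusted p of 0.00566 and missed the threshold without control 1 of experiment 2 (0.0519).

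The AP-1 subunits FOSL1 and FOSL2 rose, FOSL1 from 99.8 and 92.1 CPM to 486 and 478 CPM (log2 fold change 2.33, SE 0.43, adjusted p = 0.00817) and FOSL2 from 35.2 and 35.3 CPM to 120 and 117 CPM (1.75, SE 0.20, adjusted p = 7.74e-04). FOSL1 missed the threshold without control 1 or 2 of experiment 1 (0.0574 and 0.0543). The feedback genes did not follow as a group, because SPRY4, an inhibitor of receptor signalling, fell from 552 and 422 CPM to 209 and 207 CPM (−1.23, SE 0.17, adjusted p = 0.00233). DUSP6, the ERK phosphatase, stood at 270 and 214 against 265 and 254 CPM, overlapping (adjusted p = 0.77), and SPRY2 stood at 294 and 318 against 358 and 342 CPM (adjusted p = 0.334). Without single control libraries 4 to 6 ERK output genes and 2 to 4 AP-1 genes were called higher, the fewest without control 2 of experiment 1 for both lists (and equally without control 1 of experiment 2 for the ERK list).

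TGF-beta and BMP feedback genes included several of the clearest rises. Of 28 tested genes 9 rose (32.1%, against 8.05% of all genes) and 4 fell (14.3%, against 6.6%), with a median of 0.46. PMEPA1, which dampens SMAD signalling, went from 112 and 117 CPM to 694 and 686 CPM (log2 fold change 2.59, SE 0.20, adjusted p = 1.59e-04), and the ligand BMP2 from 10.9 and 13.9 CPM to 98.7 and 91.3 CPM (2.94, SE 0.21, adjusted p = 1.33e-04). ID1, a BMP target that blocks differentiation factors, went from 56.3 and 57.2 CPM to 152 and 140 CPM (1.37, SE 0.21). INHBA, the activin subunit, was abundant, at 429 and 267 against 1632 and 1626 CPM (2.23, SE 0.50, adjusted p = 0.0188), and missed the threshold without any 1 control (0.0611 to 0.0996). Between 3 and 5 members were called higher and 0 lower without a control library, fewest without control 1 or 2 of experiment 2. Of 27 YAP and TEAD target genes 7 rose (25.9%, against 8.05% of all genes) and 1 fell (3.70%, against 6.6%), with a median of 0.42. With upper-quartile scaling 1 rose (3.70%, against 5.57% of all genes). Most of these rises also lost their call without any 1 control or library labelled MYC knockdown, while the median ran from 0.41 to 0.49.

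Integrins changed by subunit. Of 22 tested subunits 5 rose (22.7%, against 8.05% of all genes) and 2 fell (9.09%, against 6.6%), with a median of 0.11. The alpha subunit of vitronectin receptors, ITGAV, went from 92.4 and 106 CPM to 205 and 208 CPM (log2 fold change 1.06, SE 0.14, adjusted p = 0.00166). The collagen receptor subunits ITGA1 and ITGA2 rose, ITGA1 from 445 and 424 CPM to 944 and 960 CPM (1.13, SE 0.22, adjusted p = 0.0093) and ITGA2 from 103 and 76.5 CPM to 253 and 260 CPM (1.52, SE 0.27, adjusted p = 0.00703). ITGB8, an ITGAV partner, rose from 261 and 191 CPM to 522 and 486 CPM (1.16, SE 0.23). ITGA4, a receptor for fibronectin and VCAM1, fell from 100 and 120 CPM to 43.6 and 47.1 CPM (−1.28, SE 0.21), and its relative ITGA9 from 44.1 and 89.3 CPM to 11.4 and 12.1 CPM (−2.50, SE 0.38). ITGB3, another ITGAV partner, stood at 136 and 122 against 103 and 107 CPM and was not called (adjusted p = 0.50). ITGA1 missed the threshold without any 1 control (0.0521 to 0.0694), ITGB8 without control 2 of experiment 1 or either control of experiment 2 (0.059 to 0.0783), ITGA2 without control 2 of experiment 1 (0.05) or with all libraries compared by experiment (0.0715), and ITGA4 without control 1 of experiment 2 (0.0581). Subunits called higher numbered 3 and 1 without the controls of experiment 1 in turn and 2 without either of experiment 2.

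Other adhesion genes were split evenly, with a median of 0.01. Among 42 there were 6 rises (14.3%, against 8.05% of all genes) and 7 falls (16.7%, against 6.6%). Besides NCAM1 and CADM3, the desmosome protein DSP rose from 14.7 and 14 CPM to 52.0 and 55.8 CPM (log2 fold change 1.91, SE 0.27), and the protocadherin PCDH18 fell from 11.7 and 11.8 CPM to 3.14 and 3.47 CPM (−1.83, SE 0.18). NRCAM, a neuronal adhesion molecule, fell from 52.9 and 36.5 CPM to 7.53 and 8.52 CPM (−2.48, SE 0.39), though not past the threshold without control 1 of experiment 2 (adjusted p = 0.0555). N-cadherin, CDH2, stood at 196 and 176 against 156 and 159 CPM (adjusted p = 0.263), and E-cadherin, CDH1, was at 0.05 CPM or less in every control. Without control 1 of experiment 1 2 members rose and 4 fell, without control 2 3 rose and 7 fell, and without the controls of experiment 2 in turn 2 rose and 2 or 5 fell.

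Matrix genes had 11 rises and 6 falls among 61, with a median of 0.28. Besides MMP9, the membrane protease MMP14 rose from 165 and 172 CPM to 471 and 471 CPM (log2 fold change 1.48, SE 0.15, adjusted p = 4.34e-04), and the collagen VI chain COL6A3 from 6.55 and 5.14 CPM to 54.5 and 54.6 CPM (3.22, SE 0.27). LAMB3, a laminin chain of epithelial basement membrane, rose as well (1.51, SE 0.16). The collagen crosslinking enzyme LOXL3 fell from 699 and 485 CPM to 174 and 175 CPM (−1.77, SE 0.22), and the proteoglycan LUM from 16.9 and 13.5 CPM to 2.74 and 2.71 CPM (−2.48, SE 0.26). Fibronectin, FN1, stood at 407 and 122 CPM in experiment 1 and 837 and 825 CPM in experiment 2, and it was not called (1.65, SE 0.79, adjusted p = 0.195). HAPLN1, a link protein of hyaluronan matrix, fell from 418 and 392 CPM to 49.4 and 49.2 CPM (−3.04, SE 0.40, adjusted p = 0.00169), and SPON2, a secreted spondin, from 541 and 218 CPM to 36.6 and 35.3 CPM (−3.40, SE 0.70, adjusted p = 0.0141). SPON2 missed the threshold without control 1 of experiment 1 (0.0785) or either control of experiment 2 (0.121 and 0.125). The matrix list had 6 members higher without control 1 of experiment 2 and 7 without control 2.

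**Figure D5:**
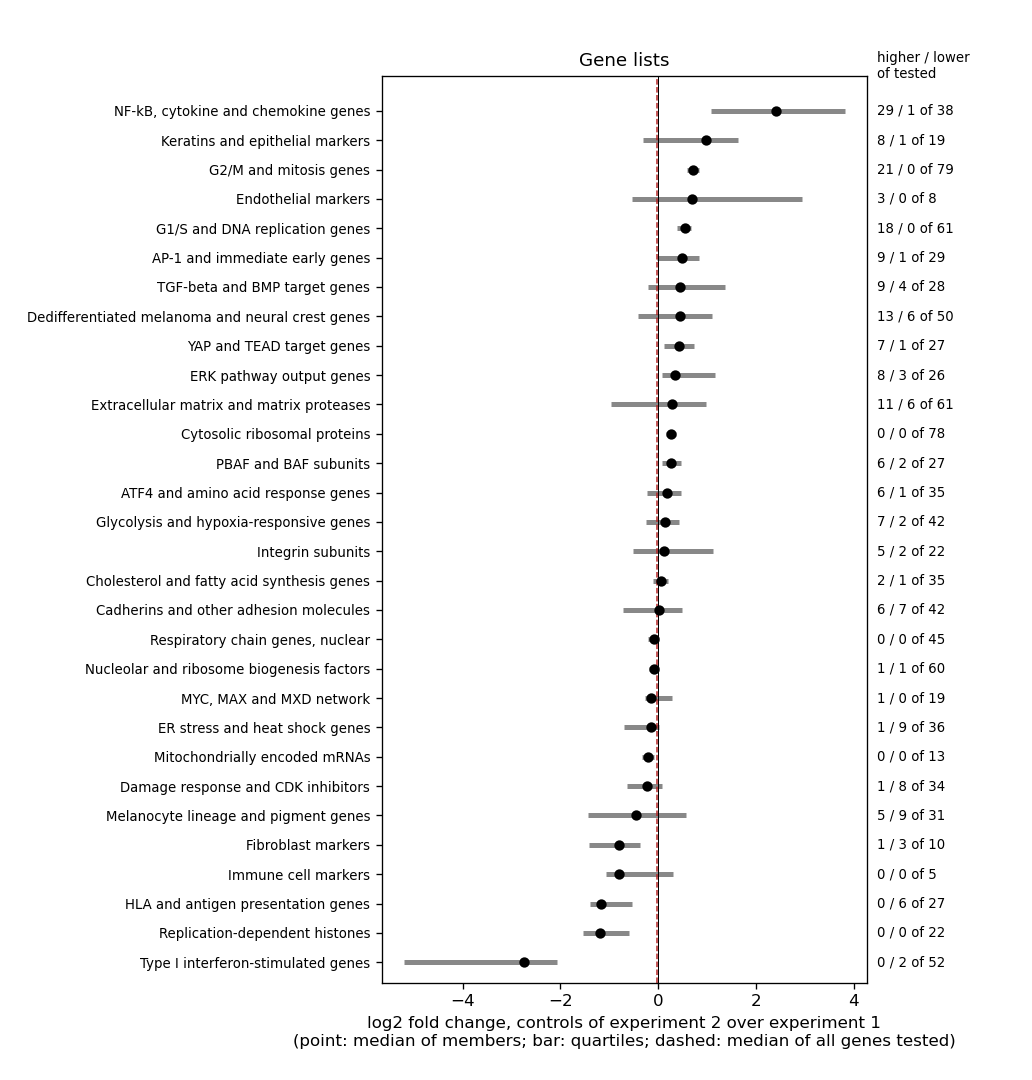
Median (point) and quartiles (bar) of the log2 fold change of each of the 30 gene lists, experiment 2 over experiment 1 controls, with the number of members called higher and lower of those tested at the right. The NF-kB list lies highest at 2.42 and the interferon list lowest at −2.75, although only 2 of its 52 members were called.

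Cell division genes were higher in experiment 2. Of 79 genes of G2/M and mitosis all had a positive fold change, ranging from 0.15 to 1.44 with a median of 0.72, and 21 were called (26.6%, against 8.05% of all genes). Of 61 genes of G1/S and DNA replication 60 were positive, with a median of 0.55, and 18 were called. The mean log2 CPM of the mitosis list was 5.34 and 5.74 in experiment 1 and 6.25 and 6.30 in experiment 2. The PHF10 knockdown libraries were lower still, at 4.34 to 5.10, and those labelled MYC knockdown stood between, at 5.97 and 5.89. The experiment 2 controls lay above both experiment 1 controls for 75 of the mitosis genes and 58 of the replication genes, where 34.5% of all genes did so. The calls depended on single libraries far more than the direction did. Mitosis genes called higher numbered 0 without control 1 of experiment 1, 10 without control 2, 1 without control 1 of experiment 2 and 0 without control 2, and 12 without either library labelled MYC knockdown. Replication genes called higher numbered 4, 5, 1 and 2 without the same controls in turn, and 9 without either library labelled MYC knockdown. In these fits the medians ran from 0.55 to 0.97 for mitosis and from 0.51 to 0.59 for replication. With the 4 controls fitted alone 50 and 40 were called.

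Single cell cycle genes show the size of the shift. BRCA1, a DNA repair factor made in S phase, stood at 41.0 and 40.3 CPM in experiment 1 and at 101 and 115 CPM in experiment 2. It passed with any 1 library left out (log2 fold change 1.41, SE 0.14, adjusted p = 4.49e-04). RRM2, which makes deoxynucleotides, went from 203 and 210 CPM to 465 and 462 CPM (1.17, SE 0.22, adjusted p = 0.0086), and E2F1, the factor that starts S phase, from 34.6 and 34.4 CPM to 71.5 and 69.0 CPM (1.03, SE 0.20, adjusted p = 0.0107). Among mitosis genes the kinesin KIF11 went from 111 and 122 CPM to 219.8 and 232 CPM (0.96, SE 0.17, adjusted p = 0.00623) and the kinase CDK1 from 56.4 and 71.6 CPM to 126 and 132 CPM (1.01, SE 0.24, adjusted p = 0.0233). RRM2 missed the threshold without control 1 of experiment 1 (0.0617), E2F1 (0.0664) and CDK1 (0.15) did so too, and KIF11 as well (0.054). E2F1 (0.0555) and CDK1 (0.0521) missed it without control 2 of experiment 1, RRM2, E2F1 and CDK1 without either control of experiment 2 (0.059 to 0.126), and KIF11 without control 2 of experiment 2 (0.0568). MKI67, the antigen of cycling cells, stood at 318 and 417 against 675 and 756 CPM (0.96, SE 0.29, adjusted p = 0.0506), and the cyclin CCNB1 at 101 and 183 against 209 and 210 CPM (adjusted p = 0.358). In both, control 1 of experiment 1 was the lowest library. In these bulk libraries a larger share of dividing cells and more RNA per dividing cell cannot be told apart.

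Targets of p53, a transcription factor of the DNA damage response, and CDK inhibitor genes were lower in part. Of 34 tested genes of this list 8 fell (23.5%, against 6.6% of all genes) and 1 rose, with a median of −0.23. The repair factor DDB2 went from 85.0 and 79.4 CPM to 46.7 and 43.1 CPM (log2 fold change −0.87, SE 0.13, adjusted p = 0.00268), and RPS27L from 127 and 133 CPM to 73.2 and 70.3 CPM (−0.86, SE 0.11, adjusted p = 0.00184). Both held with any 1 library left out. CDKN1A, the p21 inhibitor, stood at 273 and 237 against 268 and 257 CPM, overlapping (adjusted p = 0.922). Members called lower numbered 5 and 4 without the controls of experiment 1 in turn and 3 and 2 without those of experiment 2.

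The genes that the study targeted were compared in the untargeted cells. PHF10 (chr6:169703905-169725566) stood at 40.1 and 36.6 CPM in the controls of experiment 1 and at 124 and 125 CPM in those of experiment 2. The groups were tight and 3.25-fold apart (log2 fold change 1.70, SE 0.12, adjusted p = 1.22e-04), and the value ran from 1.65 to 1.77 with 1 library left out. PHF10 knockdown libraries of experiment 1 stood at 15.05 to 17.96 CPM, and those labelled MYC knockdown at 124 and 119 CPM. MYC stood at 20.2 and 32.1 CPM in experiment 1 and at 14.95 and 26.5 CPM in experiment 2, so the groups overlapped (−0.34, SE 0.39, adjusted p = 0.599). The libraries labelled MYC knockdown stood at 16.7 and 13.3 CPM, close to the lower control, so the MYC level did not set them apart from it. In the controls its fold change ran from −0.79 without control 2 of experiment 2 to 0.05 without control 2 of experiment 1.

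Subunits of PBAF and BAF complexes were mixed. Of 27 subunits, PHF10 included, 6 rose (22.2%, against 8.05% of all genes) and 2 fell (7.41%, against 6.6%), with a median of 0.26. PBRM1, which like PHF10 belongs to PBAF only, went from 52.6 and 60.2 CPM to 128 and 132 CPM (log2 fold change 1.21, SE 0.12, adjusted p = 4.49e-04). ARID2, also PBAF-specific, went from 44.4 and 51.9 CPM to 61.2 and 66.6 CPM (0.41, SE 0.12, adjusted p = 0.0459), and it missed the threshold with upper-quartile scaling (0.108), no filter (0.156), the controls fitted alone (0.0508) or a replicate block (0.0742). It did so too without any 1 control (0.056 to 0.273), either library labelled MYC knockdown (0.0881 and 0.0877) or PHF10 knockdown replicate 4 (0.0558). BRD7, the other PBAF-specific subunit listed, stood at 73.8 and 69.1 against 83.2 and 87.9 CPM (adjusted p = 0.181), and the ATPase SMARCA4 at 329 and 416 against 401 and 406 CPM, overlapping (adjusted p = 0.753). Without control 1 of experiment 1 2 subunits were called higher, and without control 1 or 2 of experiment 2 2 and 3. In the MYC, MAX and MXD network 1 of 19 genes was called, MYCN, which had 0 reads in experiment 1 and 0.66 and 0.50 CPM in experiment 2. It was at least 8.65-fold higher against the floor of 3 reads over the group, and missed the threshold without any 1 control (adjusted p = 0.0646 to 0.0852).

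Translation and respiratory chain genes were compared next, followed by metabolic genes. Of 78 cytosolic ribosomal protein genes, 13 mitochondrially encoded mRNAs and 45 nuclear respiratory chain genes 0 were called by edgeR in either direction. The medians were 0.26, −0.20 and −0.08, and without control 1 of experiment 1 they were −0.02, −0.48 and −0.20, whereas without control 2 they were 0.63, 0.12 and 0.10. Of 60 nucleolar and ribosome biogenesis factors 1 rose and 1 fell (median −0.085). That median was −0.19 without control 1 of experiment 1 and 0.088 without control 2. Of 42 glycolysis and hypoxia genes 7 rose (16.7%, against 8.05% of all genes) and 2 fell (median 0.13), with the enolase ENO2 going from 34.2 and 37.4 CPM to 89.4 and 88.9 CPM (log2 fold change 1.32, SE 0.14) and PFKFB3, which makes an activator of glycolysis, from 176 and 180 CPM to 99.1 and 105 CPM (−0.80, SE 0.15). Of 35 ATF4 and amino acid response genes 6 rose (17.1%) and 1 fell (median 0.18). Glycolysis genes called higher numbered 2 without control 1 of experiment 1 or either control of experiment 2, and amino acid response genes 4 and 3. The amino acid transporter SLC7A5 went from 294 and 326 CPM to 840 and 889 CPM (1.48, SE 0.17, adjusted p = 7.71e-04), and the cystine transporter SLC7A11 from 74.8 and 78.9 CPM to 137 and 134 CPM (0.82, SE 0.12). Of 35 cholesterol and fatty acid genes 2 rose (5.71%, against 8.05% of all genes) and 1 fell (2.86%, against 6.6%), with a median of 0.06. PFKFB3 missed the threshold without either control of experiment 2 (adjusted p = 0.0953 and 0.0728).

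Markers of other cell types were examined in the same libraries. Of 20 immune cell markers only 2 had a mean of at least 1 CPM in either experiment, their summed level was 19.8 to 24.2 CPM in experiment 1 and 12.04 to 12.6 CPM in experiment 2, and 0 of the 5 tested were called. MS4A1 and TYROBP had 0 reads in all 4 libraries. Of 10 fibroblast markers 3 fell (30.0%, against 6.6% of all genes) and 1 rose (10.0%, against 8.05%), with a median of −0.80. Fewer falls were called without control 1 of experiment 1 or either control of experiment 2. The median ran from −1.15 to −0.46 with single controls left out. All 14 listed fibroblast markers, tested or not, summed to 293 to 321 CPM in experiment 1 and 199 CPM in both experiment 2 controls. THY1 and DPT had 0 reads in experiment 1, and DPT had 0 in experiment 2. Of 8 endothelial markers 3 rose (37.5%), and 1 did so without any 1 of the 4 controls. All 12 listed endothelial markers, tested or not, summed to 78.1 to 103 CPM in experiment 1 and 181 to 189 CPM in experiment 2. ROBO4, a guidance receptor of endothelium, made up most of the difference, at 14.02 and 11.8 against 108 and 108 CPM (log2 fold change 3.07, SE 0.26, adjusted p = 2.24e-04), whereas CLDN5 had 0 reads in every control and EMCN 0 reads in experiment 2.

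Keratins and epithelial markers rose in part, with a median of 0.98. Among 19 tested there were 8 rises (42.1%, against 8.05% of all genes) and 1 fall (5.26%, against 6.6%). The summed level of all 30 listed, tested or not, was 356 to 363 CPM in experiment 1 and 625 to 639 CPM in experiment 2. KRT80 went from 26.4 and 22.1 CPM to 131 and 139 CPM (log2 fold change 2.47, SE 0.19, adjusted p = 1.77e-04), and KRT7 from 2.55 and 1.73 CPM to 10.5 and 11.99 CPM (2.39, SE 0.28). KRT18, a keratin of simple epithelia, stood at 191 and 214 against 235 and 242 CPM (adjusted p = 0.354). The epithelial marker CDH1 had 0 reads in experiment 2, and KRT6A, GRHL2 and CLDN3 had 0 in experiment 1. Between 3 and 5 members were called higher without single controls, 3 without control 1 of experiment 2. The median was 0.04 with all libraries compared by experiment, where 6 were higher and 5 lower, 0.47 with no filter and 0.63 without PHF10 knockdown replicate 2.

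Replication-dependent histone mRNAs, which lack a poly(A) tail, were a check on poly(A) selection. Of 22 tested 0 were called by edgeR, DESeq2 called 3 lower, and the median was −1.19. It was −0.06 without control 1 of experiment 1 and −1.67 without control 2, so the value rested on control 1, where the mean log2 CPM was 0.87 against −0.50 in control 2 and −0.49 and −0.67 in experiment 2.

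HOX genes, which record position along the body axis, were chosen after their values were seen. Of 9 tested HOXB genes all had a negative fold change, 6 fell (6.6% of all genes did) and the median was −1.045. HOXB8 went from 81.7 and 56.7 CPM to 12 and 10.6 CPM (log2 fold change −2.61, SE 0.22, adjusted p = 2.24e-04), and HOXB9 from 43.0 and 33.6 CPM to 17.95 and 19.1 CPM (−1.05, SE 0.15, adjusted p = 0.00234). Both held with any 1 library left out, while 3 of the 9 were called without control 1 of experiment 1 and 6 without control 2. Of 10 HOXA and 9 HOXC genes 0 were called by edgeR, with medians of −0.085 and 0.13, and of 7 HOXD genes 3 fell. By edgeR 0 HOXD genes were called without control 1 of experiment 1, and 2 without control 2.

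The knockdown libraries were compared between experiments for the same genes. Of the 1485 genes called higher in the experiment 2 controls, 1252 (84.3%) were also higher in both libraries labelled MYC knockdown than in all 4 PHF10 knockdown libraries. Of the 1217 called lower, 1029 were lower in the same way. Among all 18450 genes tested 4880 were separated upward and 4761 downward. The knockdown libraries were not contrasted, but the spread, the filter and the scaling of the fit drew on them, so they are not an independent check. They also differ by the gene targeted, which cannot be told apart from the experiment here. NFKBIA was among the genes separated. It stood at 22.3 to 26.3 CPM in PHF10 knockdown and, in those labelled MYC knockdown, at 107 and 113 CPM, next to 20.05 to 22.7 CPM and 112 to 113 CPM in the controls of the same experiments. NGFR was not separated, at 28.4 and 35.5 CPM under the MYC label and 18.5 to 36.5 CPM in PHF10 knockdown. MMP9 was separated, at 37.8 and 32.7 CPM against 1.35 to 2.67 CPM, but both values lay far below the 213 and 218 CPM of the experiment 2 controls.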

How the data were processed

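RNA from 10 A375 libraries was sequenced as single reads of 100 nt after directional poly(A) selection, per the labels' protocols. The authors deposited raw gene counts for each library, with STAR, cutadapt and GRCh38.p13 (hg38) named in the submitters' processing notes without versions or settings. The deposited count column for the strand opposite to the read was used, and rows that name no gene (unmapped, multimapping, ambiguous and outside genes) were left out; they held 19.1 to 23.6% of reads. Gene reads ranged from 20.5 to 38.4 M per library. Of 60623 gene identifiers 60295 had a symbol, and coordinates are GENCODE release 29 (GRCh38).

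The robust quasi-likelihood test of edgeR 4.0.16 (R 4.3.3), with TMM factors and filterByExpr, was applied to the counts of all 10 libraries as 4 groups, with the control groups contrasted and p-values adjusted by Benjamini-Hochberg over all genes tested. Adjusted p-values in the text are from this test unless another tool is named, and a gene was called at an adjusted p under 0.05. The script was tested on simulated data. Alternatives were DESeq2 1.42.0, limma 3.58.1 (voom with quality weights), other scaling and filters, unstranded counts, the 4 controls alone, all libraries compared by experiment, a replicate block, and each library left out. CPM are counts scaled by gene reads and TMM factors, and a floor is 3 reads over a group.

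The comparison and the 30 gene lists were chosen with earlier results of these data known. Genes were named if they were PHF10 or MYC, among the 12 largest rises or falls with at least 5 CPM and no overlap, among the 4 members of a list with the smallest p, or of a fixed set of marker genes; some were left out for length. Chosen after their values were seen were CD74, RFX5, CIITA, CXCL1, CXCL2, IL1A, NFKB2, RELB, BIRC3, PTGS2, TNFAIP3, NFKBIZ, IL11, TNF, SERPINE2, ICAM1, CCL5, SOD2, CXCL10, IFI27, IFI6, STAT2, HLA-C, HLA-DPA1, HLA-DPB1, TAP1, HSPA5, CALR, HSP90B1, PDIA6, CRELD2, ITGA1, ITGB8, NRCAM, LOXL3, HAPLN1, SPON2, CDK1, INHBA, ERBB3, GPNMB, TFAP2A, ZEB2, SPRY2, PHLDA1, ARID2, BRD7, SMARCA4, KRT18 and the HOX genes. Some genes are not reported here.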

Additional observations from a re-analysis of the deposited data

How the results depend on the processing

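Genes called higher and lower numbered 1485 and 1217, and stayed within 1.5 times of this with DESeq2, limma-voom, other scaling, other filters or unstranded counts. They were 2371 and 1958 with the 4 controls fitted alone, and 3699 and 3664 with all libraries compared by experiment, which adds the knockdown libraries. With 1 library left out they ran from 373 to 1894 higher and from 181 to 1534 lower. A replicate block gave 1660 and 1261, but the numbers pair nothing in the labels and the deviations of same-numbered controls had r = 0.00584 across genes. Of 171 named genes called, PHF10 aside, DESeq2 called 171, upper-quartile scaling 160 and the block 170, whereas 109 and 124 were called without control 1 or 2 of experiment 1 and 87 and 92 without control 1 or 2 of experiment 2.

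Some directions turned. SLC3A2 was −0.13 with all libraries by experiment. The integrin median was −0.002 with upper-quartile scaling, and the matrix median −0.099 with all libraries by experiment. The median of the MYC network was 0.086 unstranded, 0.047 by experiment, 0.077 without control 2 of experiment 1, and 0.023 and 0.051 without control 1 or 2 of experiment 2, within a range of −0.148 to 0.077 over single libraries left out. The adhesion median of 0.008 was −0.11 with upper-quartile scaling, −0.048 with a filter of 1 CPM, −0.03 with the 4 controls alone, −0.185 by experiment and −0.028 without control 2 of experiment 1. The cholesterol median was −0.052 with upper-quartile scaling. Without control 2 of experiment 1 the nucleolar median was 0.088, the mitochondrial mRNA median 0.122 and the respiratory chain median 0.101, and without control 1 the ribosomal protein median was −0.024. The endothelial median was −0.07 with a filter of 1 CPM and −0.046 by experiment. Interferon-stimulated genes called lower numbered 2 in the main comparison, 23 with DESeq2, 12 with the block, 39 by experiment and 49 with no filter. The cause of these changes was not tested. With 2 libraries a group, the common coefficient of variation was 23.3% in the experiment 1 controls and 2.47% in experiment 2, while single genes varied more or less than this. Genes of a few reads, such as CSF3, MYCN and TNF, are limited by depth.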
